A study of Mus musculus with 11 samples.

Results

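The 10 genes described here, Ttr, Folr1, Kl, Steap1, Aqp1, Clic6, Otx2, Sostdc1, Enpp2 and Igf2, mark the epithelium of the choroid plexus. They were taken by symbol from a list of marker genes that was chosen with earlier results of these data known. All 10 were found among the 23644 symbols that both count tables of the series hold. The tables give RNA-seq counts from hippocampus of one hemisphere of mice of the strain C57BL/6N, which the study dissected at P32 and the labels call adult. Mutant mice carried a Cas9-made deletion of the non-coding 1b interval of Scn1a, kept as a single mouse line, on one allele (1b+/-, labelled HT) or on both (1b-/-, labelled KO). Sequencing was done in 2 rounds. The homozygous round held 2 WT females, 1 1b-/- male and 1 1b-/- female, with single-end reads. The heterozygous round held 3 WT males, 3 1b+/- males and 1 1b+/- female, with paired-end reads. No group received a treatment.

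The choroid plexus is a sheet of epithelium on a vascular core that hangs into the brain ventricles and secretes cerebrospinal fluid (CSF). Its cells take up folate and other molecules from the blood, pump ions and water towards the ventricle, and release growth factors and enzymes into the CSF. The plexus of the lateral ventricle lies along the fimbria, at the edge of the hippocampus. In bulk tissue, fewer cells of a type and less RNA per cell cannot be told apart.

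Library totals ran from 20667122 to 36145161 counts and levels are given as CPM, the counts scaled to library size. Scn1a, the targeted gene, was at 93.2, 85.4, 98.9 and 122 CPM in the 1b+/- libraries against 174, 115 and 126 CPM in the WT libraries of their round, and at 26.4 and 16.3 CPM in the 1b-/- libraries against 133 and 169 CPM in theirs. The summed level of 10 hippocampal markers was 216 to 228 CPM in both WT libraries of the homozygous round and 581 to 1019 CPM in the other 9 libraries. The summed level of 10 striatal markers was 3408 to 8501 CPM in those WT libraries and 250 to 465 CPM in the others. The comparison of 1b-/- with WT therefore rests on controls whose markers go against the labelled tissue, and the round holds no other controls. One set of scaling factors, over the 11 libraries of both rounds, underlies each CPM value.

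The RefSeq promoter table (GRCm38.p6) held entries for 5 of the members, Steap1, Kl, Aqp1, Igf2 and Otx2, and none for Ttr, Folr1, Clic6, Sostdc1 or Enpp2. Otx2 encodes the homeodomain factor that the choroid plexus epithelium needs to form and that it keeps in the adult, and its class of factor binds the letters TAATCC, which read GGATTA on the other strand. The 250 bases before each start site were searched for both. Of the 11 start sites of these members, 1 held a match, an Otx2 start site itself, 211 bases upstream. For comparison, 2054 of all 32851 promoters in the table held a match, or 6.25%. The sequences are shown because OTX2 is the only transcription factor among the members and its level is followed below. The matching Otx2 window, chr14:48665110-48665359 on the minus strand with the match in capitals, and the Aqp1 window, chr6:55336049-55336298 on the plus strand without one, read 5′ to 3′:
Otx2: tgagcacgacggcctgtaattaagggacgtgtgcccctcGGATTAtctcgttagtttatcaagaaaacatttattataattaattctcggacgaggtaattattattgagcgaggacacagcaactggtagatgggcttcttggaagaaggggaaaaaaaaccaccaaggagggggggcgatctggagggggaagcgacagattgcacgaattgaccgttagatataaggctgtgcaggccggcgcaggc
Aqp1: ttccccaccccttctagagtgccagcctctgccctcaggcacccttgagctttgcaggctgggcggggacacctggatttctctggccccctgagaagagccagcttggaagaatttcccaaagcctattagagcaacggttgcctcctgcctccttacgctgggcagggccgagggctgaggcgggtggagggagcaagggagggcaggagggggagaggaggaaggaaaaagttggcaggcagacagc
A match of 6 letters is a description of the window and not a binding site.

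Ttr encodes transthyretin, the carrier of thyroxine and of retinol-binding protein that dominates the output of this epithelium, and is on chromosome 18 of mm9. In the heterozygous round, Ttr was at 663, 839 and 986 CPM in the WT libraries and at 33.0, 1058, 2404 and 1958 CPM in 1b+/- replicates 1 to 4. In the homozygous round it was at 36.0 and 3107 CPM in WT replicates 1 and 2, and at 42.4 and 12781 CPM in 1b-/- replicates 1 and 2. One library of each group but the WT mice of the heterozygous round was thus far below all others, and each of the 4 groups overlapped the group it was compared with. Ttr took 1.27% of all counts in 1b-/- replicate 2 and 0.00411% in 1b-/- replicate 1. The mean was 829 ± 162 CPM (SD, n = 3) in WT and 1363 ± 1049 CPM (n = 4) in 1b+/- mice, and in the homozygous round 1571 ± 2171 CPM (n = 2) in WT and 6411 ± 9007 CPM (n = 2) in 1b-/- mice.

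**Figure D1:**
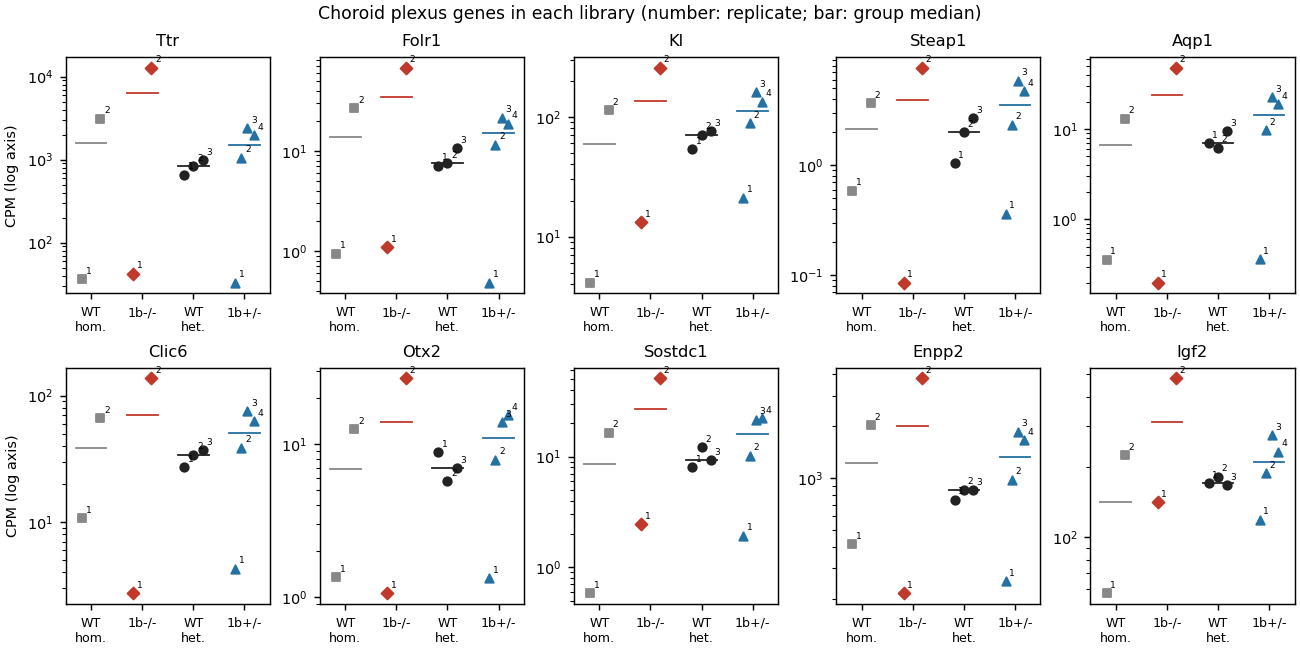
Level of each of the 10 members in each library, in CPM on a log axis, with 1 panel per gene, 1 point per library labelled by its replicate number, and a bar at the group median. In every panel, replicate 1 of the 1b+/- group is the lowest library of the heterozygous round and replicate 2 of the 1b-/- group is the highest of all 11.

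The same libraries were low and high for every member. 1b+/- replicate 1 was the lowest of the 7 libraries of the heterozygous round in all 10 genes, and 1b+/- replicates 3 and 4 were the top pair in all 10. 1b-/- replicate 2 was the highest and WT replicate 2 the next highest of the homozygous round in all 10. The lowest place in that round was less uniform, with 1b-/- replicate 1 lowest in 5 genes and WT replicate 1 in the other 5.

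Folr1 (chr7:109006845-109019302, minus strand, mm9) encodes the folate receptor that carries folate across the epithelium into the CSF. It was at 7.11, 7.52 and 10.7 CPM in WT and at 0.483, 11.5, 21.4 and 18.7 CPM in 1b+/- libraries. The libraries of the homozygous round held 0.942 and 26.5 CPM in WT and 1.08 and 67.4 CPM in 1b-/- libraries. The order of the 11 libraries was that of Ttr within each round.

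Aqp1 (chr6:55286426-55298549, plus strand) encodes the water channel of the ventricular face of these cells. It was at 6.97, 6.26 and 9.55 CPM in WT and at 0.362, 9.73, 22.5 and 19.1 CPM in 1b+/- libraries. In the homozygous round it was at 0.359 and 13.1 CPM in WT and at 0.200 and 48.0 CPM in 1b-/- libraries. The 3 lowest values stood on 9, 8 and 7 counts, so their counting error was large. Clic6 (chr16:92485981-92541488, plus strand), of the family of intracellular chloride channel proteins, ran from 2.74 CPM in 1b-/- replicate 1 to 137 CPM in 1b-/- replicate 2. Steap1 (chr5:5736317-5749326, minus strand), of a family of membrane metalloreductases, was the member with the lowest level and ran from 0.0855 CPM, or 3 counts, to 7.66 CPM in the same pair of libraries.

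The secreted members were led by Enpp2 (chr15:54670453-54751701, minus strand), which encodes autotaxin, the enzyme that makes lysophosphatidic acid (LPA). Enpp2 was at 752, 860 and 850 CPM in WT and at 254, 981, 1857 and 1664 CPM in 1b+/- libraries. In the homozygous round it was at 414 and 2037 CPM in WT and at 215 and 3793 CPM in 1b-/- libraries. The lowest libraries were those of Ttr, at a level above that of Ttr in the same libraries. Autotaxin is also made by oligodendrocytes, whose 11 markers summed to between 6813 and 24756 CPM in all 11 libraries.

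Igf2 (chr7:149836673-149852721, minus strand), an imprinted growth factor that the choroid plexus and meninges release, varied least of the members. It was at 171, 181 and 167 CPM in WT and at 119, 188, 273 and 232 CPM in 1b+/- libraries. For the homozygous round the values were 57.4 and 224 CPM in WT and 141 and 479 CPM in 1b-/- libraries. Sostdc1 (chr12:37040756-37045039, plus strand), a secreted antagonist of BMP and Wnt signalling, ran from 0.583 CPM in WT replicate 1 of the homozygous round to 50.9 CPM in 1b-/- replicate 2. Kl (chr5:151755182-151796384, plus strand), which encodes Klotho, the co-receptor of FGF23 that is also shed into the CSF, ran from 4.13 to 257 CPM in the same pair of libraries.

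Otx2 (chr14:49277354-49287319, minus strand) was at 8.85, 5.71 and 6.94 CPM in WT and at 1.33, 7.85, 13.9 and 15.4 CPM in 1b+/- libraries. In the homozygous round it was at 1.35 and 12.4 CPM in WT and at 1.05 and 26.8 CPM in 1b-/- libraries. WT replicate 1 of the heterozygous round, the lowest of the 3 WT libraries for Ttr, was the highest of them for Otx2. The 10 markers of thalamus and habenula summed to 769 CPM in that library, to 415 and 556 CPM in 1b+/- replicates 3 and 4, and to between 170 and 246 CPM in the other 8, and the part of this in the Otx2 values was not tested.

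Per length, taken as the median CPM over the 11 libraries for each kilobase of the exons annotated in mm9, the members were ordered from Ttr at 809 and Enpp2 at 248 over Igf2 at 33.0, Kl at 14.8 and Clic6 at 9.47 to Sostdc1 at 5.84, Folr1 at 4.65, Aqp1 at 3.64, Otx2 at 2.31 and Steap1 at 1.69 CPM per kilobase. On the log2 scale, each step between neighbours in this order except that from Enpp2 to Igf2 was smaller than the within-group standard deviation of at least one of both genes. Clic6 overlaps another counted gene on its own strand, and Igf2 overlaps the microRNA gene Mir483 on its own strand, so reads from these overlaps cannot be assigned with certainty.

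The members were among the most variable genes of the series within groups. The pooled within-group standard deviation of log2(CPM + 1) was 3.36 for Ttr, which ranked 2 of 14905 genes tested over both tables. It was 2.10 for Aqp1 and 2.07 for Folr1, at ranks 7 and 9. Igf2 had the smallest value among the members, 0.779 at rank 99. The median over all 14905 genes was 0.132.

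The first comparison asked whether heterozygous deletion changed these genes. None of the 10 members passed the test in 1b+/- against WT (edgeR's quasi-likelihood test, Benjamini-Hochberg adjusted p under 0.05). Scn1a, the targeted gene, did not pass this test either (log2 fold change -0.475, SE 0.153, adjusted p = 0.303). The paper reports Scn1a as significantly lower in these mice. A test that does not call the targeted gene cannot show that the members were unchanged. Of all 14630 genes tested, 0% were called higher and 0% lower, although 1649 had an unadjusted p under 0.05, and no member was among those. The likelihood ratio test called 191 genes and DESeq2 245, and neither called a member. All 10 fitted log2 fold changes were above 0, with a median of 0.56 beside 0.0007 over all genes. Steap1 had the largest, 0.81 (SE 0.67, adjusted p = 0.692), and Igf2 the smallest, 0.23 (SE 0.22, adjusted p = 0.744). For Ttr it was 0.71 (SE 0.90, adjusted p = 0.804).

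The standard errors were close to the differences in size or larger. 1b+/- replicate 1 was the lowest of its round for all 10 members. Without it, the log2 fold changes were 0.41 to 1.18, with 1.12 for Ttr (SE 0.27) and 0.93 for Kl (SE 0.20). All 10 members then had an unadjusted p under 0.05 and an adjusted p of 0.250 or more. The share of all genes under 0.05 in that fit is not given here, and the members move together, so the 10 are not separate results. Other libraries moved the values the opposite way. Without 1b+/- replicate 3 they were 0.05 for Igf2 to 0.40 for Steap1, with 0.29 for Ttr (SE 0.97). Without 1b+/- replicate 4, the only female of the round, they were 0.09 for Otx2 to 0.60 for Steap1, with 0.49 for Ttr (SE 0.97). Sex as a covariate gave the same values to 2 decimals for these 3 genes. With a single female, a term for sex takes up that library, so this likeness was fixed by the design. On the mean of log2(CPM + 1), which weights the low library more, Ttr was lower in 1b+/- than in WT by -0.35 and Clic6 by -0.08, opposite in sign to the fit, and the other 8 members were higher. Exact two-sided permutation tests over the 35 ways to assign genotype to these libraries gave p from 0.571 to 1 for the members, where the smallest possible p was 0.0286. The groups overlapped in every member, and overlap over all genes was not counted.

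**Figure D2:**
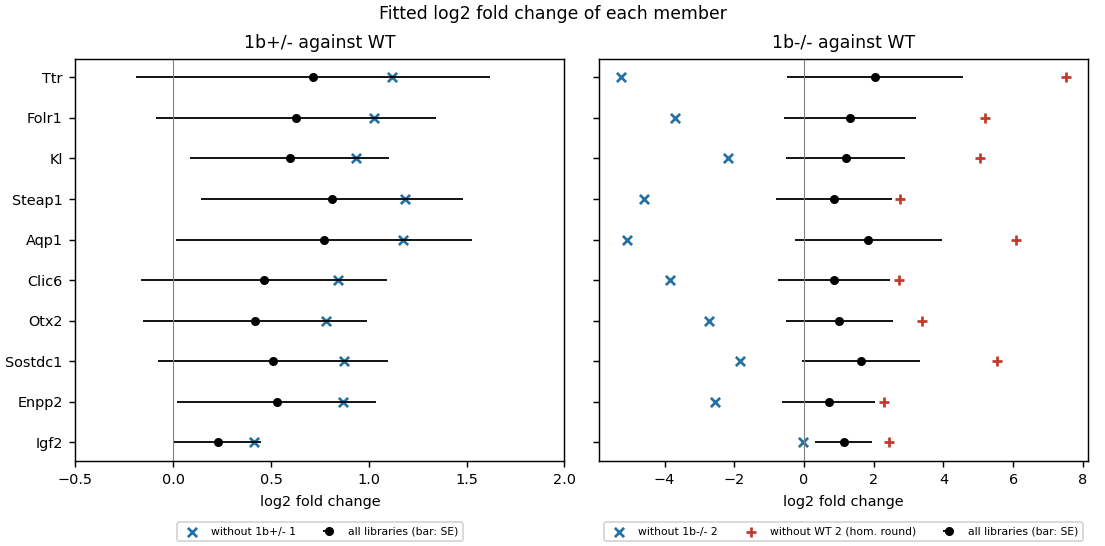
Fitted log2 fold change of each member in 1b+/- against WT (left) and 1b-/- against WT (right), with all libraries of the round (black, bar: SE) and with single libraries left out (blue and red). Without 1b+/- replicate 1 the left-hand values are 0.41 to 1.18. On the right they run from -5.25 to -0.03 without 1b-/- replicate 2 and from 2.30 to 7.50 without WT replicate 2.

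The second comparison asked the same of homozygous deletion. None of the 10 members passed the test in 1b-/- against WT, where 2.06% of 14838 genes were called higher and 1.52% lower, and no member had an unadjusted p under 0.05. The fitted log2 fold changes were again all above 0, with a median of 1.17 beside -0.0013 over all genes. Ttr had the largest, 2.03 (SE 2.53, adjusted p = 0.645), followed by Aqp1 at 1.85 (SE 2.11, adjusted p = 0.614). Igf2, at 1.14 (SE 0.82), had the smallest adjusted p of the members, 0.419.

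With 2 libraries per group, each direction rested on single libraries. Without 1b-/- replicate 2 all 10 members were lower in 1b-/- than in WT, with log2 fold changes from -5.25 for Ttr to -0.03 for Igf2, and without WT replicate 2 all were higher, from 2.30 for Enpp2 to 7.50 for Ttr. Exact permutation over the 6 ways to assign genotype gave p of 0.667 to 1 and cannot go below 0.333. In the mean of log2(CPM + 1), Clic6 (-0.31) and Enpp2 (-0.02) were lower in 1b-/- mice. The 2 libraries of this round with high levels, 1b-/- replicate 2 and WT replicate 2, differed by 4.11-fold in Ttr, 3.67-fold in Aqp1, 3.09-fold in Sostdc1 and 1.86-fold in Enpp2, with no replicate behind these folds.

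The difference between both effects (1b-/- minus 1b+/-) was tested in 1 fit of all 11 libraries. 14.3% of 14905 genes were called higher and 13% lower, and again no member passed. For Ttr the difference was 1.30 (SE 2.56, adjusted p = 0.739), and for Igf2, with the smallest adjusted p of the members, it was 0.90 (SE 0.79, adjusted p = 0.429). The direction turned with single libraries. Without 1b-/- replicate 2 all 10 differences were below 0 (-5.96 for Ttr to -0.25 for Igf2), without WT replicate 1 of the homozygous round 4 of 10 were above 0, and without WT replicate 2 of that round all 10 were, from 1.74 to 6.76. Round, and the marker levels of the WT libraries of the homozygous round, cannot be told apart from genotype in these values.

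The next question was whether the members moved together from library to library. Pearson's r of log2(CPM + 1) with Ttr was tested over all 11 libraries after each value was set against the mean of its round, by exact permutation of the libraries within rounds (120960 arrangements), with adjustment over all 14904 genes. 6 of the 9 other members passed with a positive r: Folr1 and Kl (adjusted p = 0.0176 each), Igf2 (0.0266), Aqp1 (0.0277), Steap1 (0.0295) and Sostdc1 (0.0352). Of all genes, 0.51% passed with a positive r and 0.00671% with a negative one. The members were chosen with earlier results of these data known, so their calls are a description and not an independent test. Enpp2 (adjusted p = 0.0536), Clic6 (0.0571) and Otx2 (0.0750) did not pass. The number of calls changed with the libraries left out. None of the members or of all genes passed without 1b-/- replicate 2, without 1b+/- replicate 1, 3 or 4, or without WT replicate 1 of the heterozygous round, and 2 or 3 members passed without 1b+/- replicate 2, WT replicate 2 of either round or WT replicate 3. Among the 11 libraries left out in turn, 6 members passed without WT replicate 1 or without 1b-/- replicate 1 of the homozygous round. None passed without both WT libraries of that round. Each left-out library also leaves fewer than 120960 arrangements, the same number for each library of a round, so the smallest possible p is larger. A lost call there does not by itself show that co-variation hung on the library left out. Any single value here covers libraries that differ in genotype, sex and round.

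Because 3 libraries with Ttr below 100 CPM stood apart from the other 8, no pooled r is given for the members. Within those 8 libraries, each round centred, r with Ttr was 0.879 for Otx2, 0.940 for Steap1 and between 0.959 and 0.986 for the other 7 members, and Spearman's rho was 0.738 to 0.976. Unadjusted permutation p over 1440 arrangements were 0.000694 for Folr1, Kl and Clic6, the smallest possible, and up to 0.0306 for Otx2. None of 14904 genes passed adjustment there, and 1.13% had an r of at least 0.9, beside 8 of the 9 members. Without the 2 libraries farthest from the median of Ttr, r was 0.908 for Sostdc1 and 0.954 to 0.998 for the others. Within the 6 libraries of the heterozygous round among them, r was 0.825 for Otx2 (rho 0.60, permutation p = 0.0611) and 0.933 to 0.999 for the other 8.

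**Figure D3:**
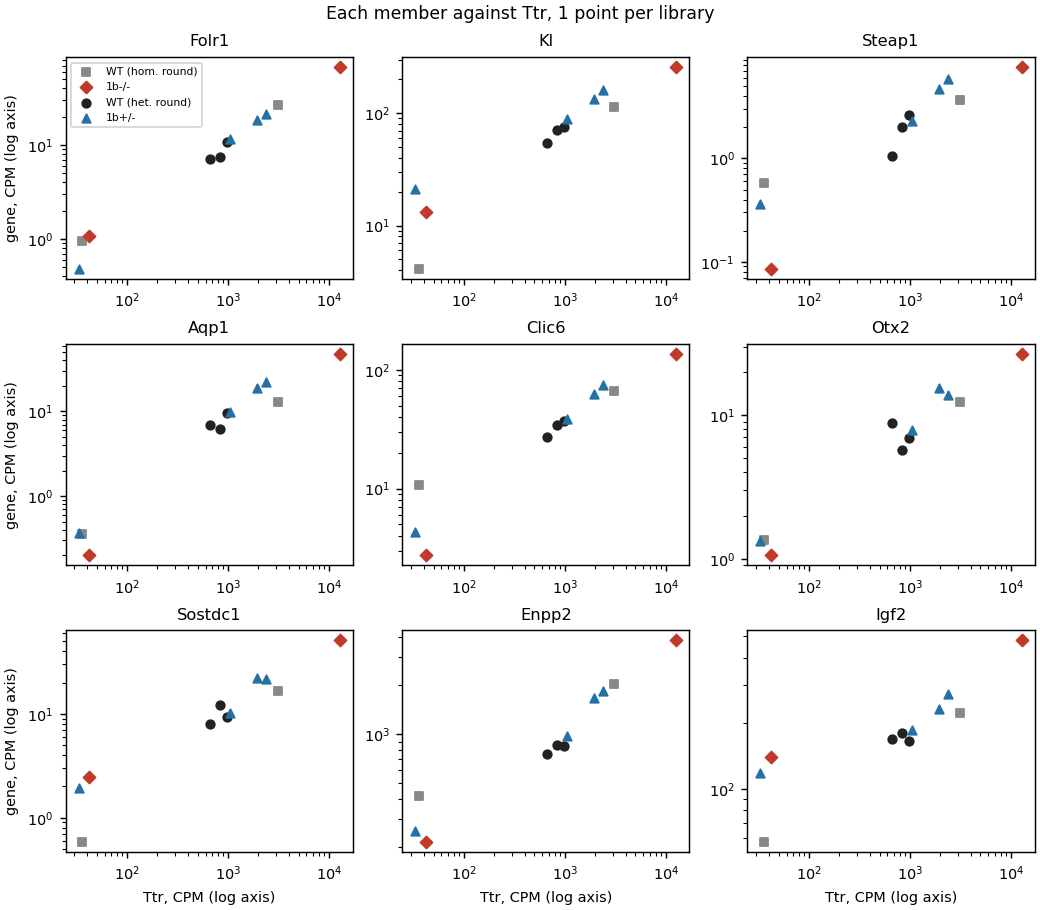
Level of each of the other 9 members against that of Ttr, both in CPM on log axes, with 1 point per library and colour and shape by group. The 3 libraries with Ttr at 33.0 to 42.4 CPM lie apart from the 8 at 663 to 12781 CPM, and among those 8 each member rises with Ttr.

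Among themselves, the 45 pairs of members had a median r of 0.950 over the 8 libraries, and 36 pairs had an r of at least 0.9. Clic6 and Kl were the most alike (0.995), and Otx2 and Steap1 the least (0.775). Of the 9 pairs under 0.9, 7 held Otx2.

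How closely the members held a fixed proportion to Ttr differed between genes. Over the 6 libraries of the heterozygous round with Ttr above 100 CPM, Ttr itself spanned 3.63-fold. Folr1 stayed between 8.88 and 10.8 CPM per 1000 CPM of Ttr, a 1.22-fold span, and Kl between 66.6 and 84.4, a 1.27-fold span. Otx2 ran from 5.77 to 13.4 per 1000, the widest span of the members at 2.31-fold, with the highest ratio in WT replicate 1.

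In the 3 libraries with Ttr of 33.0 to 42.4 CPM, the ratios parted. Aqp1 was at 10.96 CPM per 1000 of Ttr in 1b+/- replicate 1, 9.96 in WT replicate 1 and 4.71 in 1b-/- replicate 1 of the homozygous round. The 6 libraries held 7.47 to 10.5, so the last of these values was below them. These Aqp1 values stand on 9, 8 and 7 counts, so their contrast with other members is uncertain. Enpp2 was at 7676, 11483 and 5083 per 1000 in the same 3 libraries against 772 to 1135 in the 6, and Igf2 at 3590, 1593 and 3332 against 114 to 257. Kl was at 641 in 1b+/- replicate 1, at 115 in WT replicate 1 and at 313 in 1b-/- replicate 1. At the other end, in 1b-/- replicate 2, each of the 9 ratios was the lowest of all 11 libraries, for example 5.27 for Folr1 and 297 for Enpp2. WT replicate 2 of the homozygous round was the next lowest in all 9, for example 8.51 for Folr1 and 656 for Enpp2. Low ratios were thus not particular to 1b-/- mice, and Ttr, the divisor, was itself highest in these 2 libraries.

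**Figure D4:**
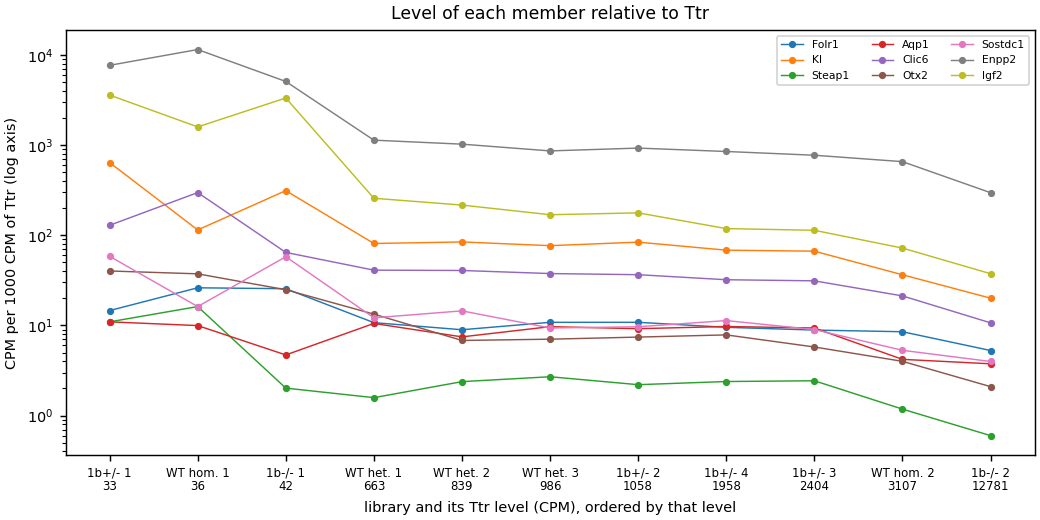
Level of each of the 9 other members in CPM per 1000 CPM of Ttr, on a log axis, in the 11 libraries ordered by their Ttr level, which is printed under each name. Enpp2 and Igf2 are highest in the 3 libraries at the left. Aqp1 lies there at 4.71 to 10.96, on 7 to 9 counts, beside 7.47 to 10.5 in the middle libraries.

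Outside the members, the 10 genes with the largest r with Ttr over the 11 libraries, among genes with a mean of at least 1 CPM, were Slc4a5, Cldn2, Kcne2, Col8a1, 1500015O10Rik, F5, Prlr, Tmem72, Slc2a12 and Kcnj13, with r from 0.982 to 0.998 as the measure of likeness, pooled over both clusters of libraries. In the 8 libraries alone, their r was 0.902 for Prlr to 0.995 for Slc4a5. Slc4a5 encodes a sodium bicarbonate cotransporter, Cldn2 a tight junction protein of leaky epithelia, Kcne2 and Kcnj13 potassium channel subunits, and Prlr the prolactin receptor. 8 of the 10 were on a second list of 30 choroid plexus genes, of which 17 of the 28 tested passed, and 51 of the 76 genes that passed were on none of the lists used. The second list too was chosen with earlier results of these data known. The second list did not pass as genotype changes: 0 of 27 genes were called in 1b+/- mice (median log2 fold change 0.44) and 0 of 28 in 1b-/- mice (median 1.35). Of all genes tested, 0% were called in 1b+/- mice, and 2.06% higher and 1.52% lower in 1b-/- mice. Cdh1, of the second list, had an r of 0.0674 over the 11 libraries and of 0.921 over the 6. Mfrp, also on it, had no count in any library.

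Genes of the pathways that the members act in had lower medians. Over the 6 libraries, the median r with Ttr was 0.982 for the 9 members and 0.956 for the second list, against 0.0103 for all genes. It was 0.853 for 15 further genes of ion and water transport (Slc4a5, Kcne2, Kcnj13 and Car12 stand on the second list too), 0.681 for 7 of folate uptake and use, 0.659 for 9 of thyroid hormone and retinol handling, 0.517 for 11 of BMP and Wnt signalling, 0.242 for 10 of the IGF system, 0.159 for 6 of LPA signalling and 0.130 for 3 FGF receptors. Single genes of these lists were nevertheless close to Ttr. Igfbp2, an IGF binding protein of the choroid plexus, had an r of 0.945 and passed over the 11 libraries (adjusted p = 0.0228), and Igf2r, the clearance receptor of Igf2, had an r of 0.953 but did not pass (adjusted p = 0.0720).

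**Figure D5:**
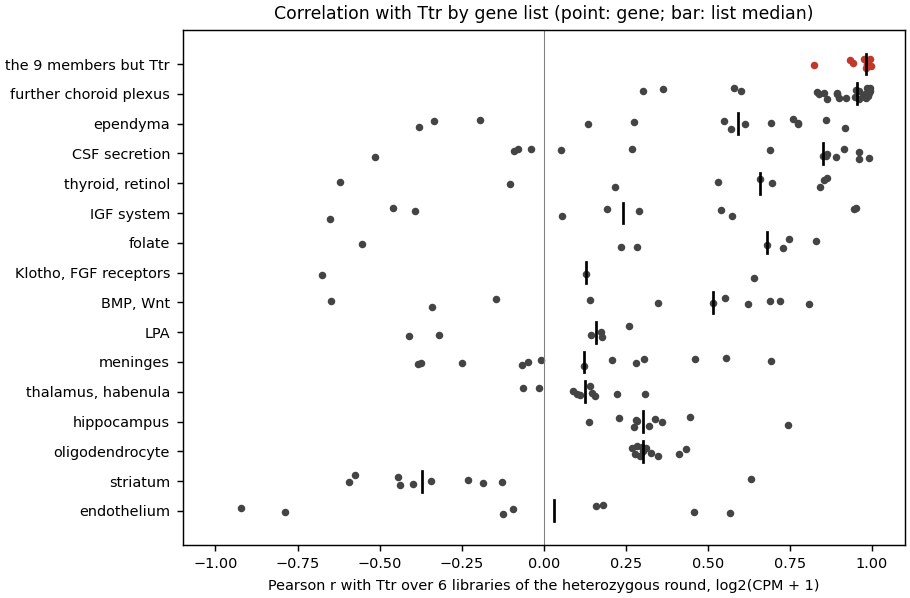
Pearson's r with Ttr of log2(CPM + 1) over the 6 libraries of the heterozygous round with Ttr above 100 CPM, 1 point per gene and 1 row per gene list, with a bar at the list median. The members (red, 0.825 to 0.999) and the second choroid plexus list (median 0.956) lie at the right, and the 7 lists of other tissues drawn spread around medians from -0.371 to 0.593 (the red blood cell list, with 1 gene tested, is not drawn).

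By genotype, none of these pathway genes was called in 1b+/- mice, where 0% of all genes were. In 1b-/- mice, with the members on each list counted in, 0 of 16 transport genes, 0 of 8 folate genes, 0 of 12 BMP and Wnt genes and 0 of 7 LPA genes were called. Of all 14838 genes tested there, 2.06% were called higher and 1.52% lower. A count of 0 in lists this short is therefore no result about these pathways. Of 10 thyroid hormone and retinol genes, 1 was higher, Crym, which encodes a thyroid hormone binding protein of the cytosol (log2 fold change 1.70, SE 0.22, adjusted p = 0.0299). Of 11 IGF genes, Igfbp3 was higher (1.14, SE 0.18, adjusted p = 0.0427) and Igf2bp2, an RNA-binding protein, lower (-2.78, SE 0.34, adjusted p = 0.0283). Of 4 genes of Klotho and its FGF receptors, Fgfr1 was higher (1.45, SE 0.19, adjusted p = 0.0299). These 4 genes had r of -0.46 to 0.19 with Ttr over the 6 libraries. In the same comparison 9 of 11 striatal markers were called lower and 6 of 10 hippocampal markers higher, and the part of this in the 4 calls was not tested.

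Markers of neighbouring tissues were set beside the members. The 14 ependymal genes, which mark the ciliated lining of the ventricles, had a median r with Ttr of 0.593 over the 6 libraries, and 1 of them, Tekt1, passed over the 11 (adjusted p = 0.0496). Their summed level was 37.8 CPM in 1b+/- replicate 1 and 44.6 to 68.6 CPM in the other libraries of that round, a smaller span than that of the members, whose sum was 435 CPM in that library and 1698 to 4854 CPM in the others. For the homozygous round the ependymal sums were 74.2 and 82.9 CPM in WT and 52.7 and 147 CPM in 1b-/- libraries, so that 1b-/- replicate 2 was the highest of all 11, as for the members. All 14 ependymal genes had a positive r with Ttr over the 11 libraries (median 0.709). The 13 meningeal genes had a median r of 0.124 and summed to 253 to 293 CPM in that round, where 1b+/- replicate 1 was the lowest. In the homozygous round they summed to 83.9 and 111 CPM in WT and to 236 and 297 CPM in 1b-/- libraries. Endothelial markers summed to 263 to 400 CPM over the 11 libraries and had a median r of 0.0328. Of 7 red blood cell genes, 5 had no count in any library, and the sum did not exceed 10.7 CPM. Alas2, of the same list, had counts in all 11 libraries, so these zeros do not show that blood was absent. Whether the counting left out reads of the 5 genes was not tested. What part cells other than choroid plexus epithelium have in the members' levels was not tested.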

How the data were processed

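RNA-seq libraries of mouse hippocampus were analysed from raw counts per gene that the authors deposited, made by alignment to mm9 with STAR 2.7.2 and counting with featureCounts, with no normalization. Libraries were stranded, but the strand setting of the counting is not given in the sources used here. Groups and sexes came from the labels, and replicate numbers only name libraries. Each round was fitted with edgeR 4.0.16 in R 4.3.3 on genes with a CPM of 1 or more in any library (TMM factors, glmQLFit, glmQLFTest, Benjamini-Hochberg adjustment, threshold 0.05), with genotype as the only term. The difference between genotypes used all 11 libraries and the symbols of both tables, without 27 symbols that a spreadsheet had turned into dates. The SE was derived from the fold change and the square root of F. Fold changes within a round are scaled in that round. Co-variation used log2(CPM + 1), TMM-scaled over the 11 libraries, and exact permutation within rounds.

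The members and the gene lists were chosen with earlier results of these data known. Named genes were the members, the 10 genes most like Ttr, the 2 genes of smallest p in each list (4 for the second choroid plexus and transport lists), and Scn1a. Mfrp, Cdh1, Igfbp2, Igf2r and Tekt1 were named after their values were seen. Alternatives were the likelihood ratio test, DESeq2 1.42.0, other scaling and filters, sex as a covariate, and each library left out. The code was tested on simulated data. Values that stand on under 10 counts carry a large counting error. Each library was 1 mouse, and the tests of genotype set a difference against the spread between these mice. The p-values of co-variation come from rearranging libraries within rounds.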

Additional observations from a re-analysis of the deposited data

How the results depend on the processing

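No member was called for genotype under any alternative, in either comparison or in their difference. In 1b+/- against WT all 150 alternative log2 fold changes of the members were above 0, in 1b-/- against WT 109 of 120, and in the difference between both 157 of 180. These are refits of the same libraries for genes that move together, so they are not separate checks. Within a round, sex as a covariate repeats the fit without the only mouse of its sex, 1b+/- replicate 4 or 1b-/- replicate 1. The mean of log2(CPM + 1), not counted here, was lower in 1b+/- than in WT for Ttr (-0.35) and Clic6 (-0.08) and higher for the other members. Of the 120 refitted values in 1b-/- against WT, the 11 below 0 came from leaving out single libraries of the homozygous round. There the range over the left-out libraries was -5.25 to 7.50 for Ttr, -3.69 to 5.20 for Folr1, -2.18 to 5.05 for Kl, -4.59 to 2.74 for Steap1, -5.07 to 6.07 for Aqp1, -3.84 to 2.72 for Clic6, -2.73 to 3.39 for Otx2, -1.83 to 5.53 for Sostdc1, -2.54 to 2.30 for Enpp2 (-0.018 without WT replicate 1) and -0.026 to 2.45 for Igf2.

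The number of members that co-varied with Ttr was 6, and it was 9 without centring on rounds, 8 with library totals alone, 7 on linear CPM, and 6 with a pseudocount of 0.1 or with genes of at least 1 CPM on average. It was 0 when values were centred on genotype within rounds and 0 in the heterozygous round alone. Over the leave-one-out settings it ran from 0 to 6. It was 0 without 1b-/- replicate 2, 1b+/- replicate 1, 3 or 4, or WT replicate 1 of the heterozygous round, 2 without WT replicate 2 of either round or 1b+/- replicate 2, and 3 without WT replicate 3. Chosen after seeing the data, it was 0 over the 8 libraries above 100 CPM of Ttr and 0 without both WT libraries of the homozygous round. Each of these settings with 0 members also called 0 genes in all. Each has fewer arrangements than the 120960 of the main test, so its smallest possible p is larger. Over the 8 libraries it is 0.000694, before adjustment over 14904 genes. A count of 0 there does not by itself show that co-variation was lost, and the part of this limit in the counts was not tested. Leaving out any single library of the homozygous round gives the same smallest possible p, and the count there was 0, 2 or 6. The r of all 9 members was positive in each setting. No paired analysis was possible because replicate numbers only name the libraries.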
